A study of Mus musculus with 18 samples.

Results

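Islets of Slc30a8 knockout mice (KO, ZNT8 -/- in the labels) were set against islets of heterozygous mice (Het, ZNT8 +/-), both cultured without cytokines. The comparison uses 6 of the 18 libraries of the study, 3 KO and 3 Het, and 17590 of the 55536 genes in the count table, which are those that passed a filter on low counts. Libraries were assigned to groups by their labels. All mice were 17-week-old males of the strain NOD.CB17-Prkdcscid/NCrCrl, whose Prkdc mutation stops T and B lymphocytes from maturing, so KO, Het and wild-type (WT) mice all carry it. Islets were released by digestion, purified on a gradient, cultured overnight and then kept 24 h in medium, either plain (untreated) or with 3 cytokines: TNF-α at 100 pg/ml, IL-1β at 150 pg/ml, and IFN-γ at 10 pg/ml. Untreated WT islets and the cytokine-treated KO and Het islets, 3 libraries each, are used below as reference points. The sources used here do not give which part of Slc30a8 was deleted, the cells in which it is deleted, or how many mice went into a library. Whether replicates came from separate animals is likewise not given, so the p-values speak of the spread among these libraries, which may be technical.

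Slc30a8 encodes ZnT8, the transporter that loads zinc into the insulin granules of beta cells, where zinc packs insulin into crystals. In human genetics, loss-of-function variants of the gene are linked to protection from type 2 diabetes, and ZnT8 is an autoantigen in type 1 diabetes. Isolated islets hold beta, alpha, delta and PP cells, the blood vessel and stromal cells among them, and variable amounts of the duct and acinar tissue that surrounds islets in the pancreas. Bulk RNA reads all of these together. A lower level of a cell type's genes can therefore come from fewer such cells or from less RNA per cell, and these cannot be told apart here.

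Levels below are in CPM (the gene's share of a library's reads, on a common scale) after scaling of the libraries, and differences are log2 fold changes of KO over Het ± SE, with p-values from edgeR's quasi-likelihood test, adjusted by Benjamini and Hochberg over all 17590 genes. In the fit on all 18 libraries only 1 gene passed an adjusted p of 0.05, 0.00569% of those tested: Dsg3, lower in KO. An edgeR fit on the 6 compared libraries alone called 0 genes, with a smallest adjusted p of 0.151. In the fit on 18 libraries 2620 genes (14.9%) had an unadjusted p under 0.05, 1039 higher in KO (5.91%) and 1581 lower (8.99%). The groups did not overlap for 892 genes that were higher in KO in every library (5.07%) and for 1112 that were lower (6.32%). The other tools differed widely, with 329 genes called by DESeq2 and 2279 by limma voom, which gives each library a weight for its quality.

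**Figure D1:**
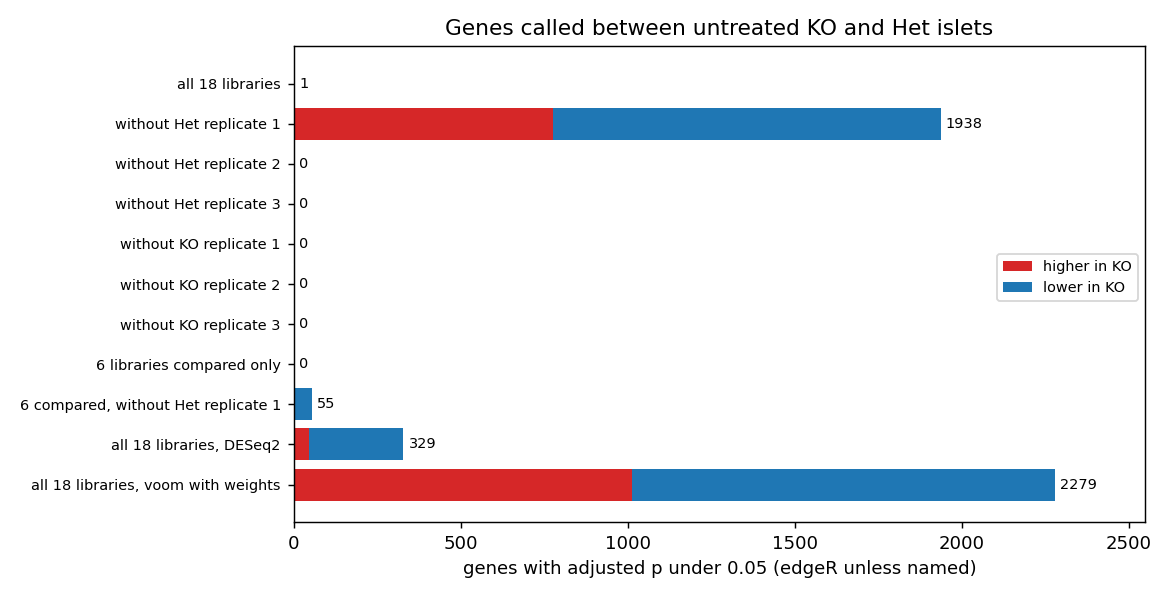
Number of genes past an adjusted p of 0.05 in untreated KO against Het islets (horizontal axis), higher and lower in KO, under 11 settings (vertical axis). In the fit on all 18 libraries edgeR called 1 gene, and in the fit on the 6 compared libraries alone 0. Without Het replicate 1 it called 776 higher and 1162 lower.

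Het replicate 1 stood apart from the other untreated Het libraries. On the first principal component of the 9 untreated libraries, which holds 37.7% of the variance, it lay at 31.9, whereas Het replicates 2 and 3 lay at -29.4 and -45.8. KO replicates 1 and 2 lay at 41.3 and 29.0, on the side of Het replicate 1, and KO replicate 3 at -16.5. KO replicate 3 was also the lowest on the second component (19.9% of the variance), at -46.6. limma's quality weights were 0.231 for Het replicate 1 and 0.479 for KO replicate 3, the lowest of the 6. These were also the deepest of the 6, at 29946680 and 29651472 reads against 24864201 to 27953106 in the other 4, and the part of depth in their position was not tested.

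**Figure D2:**
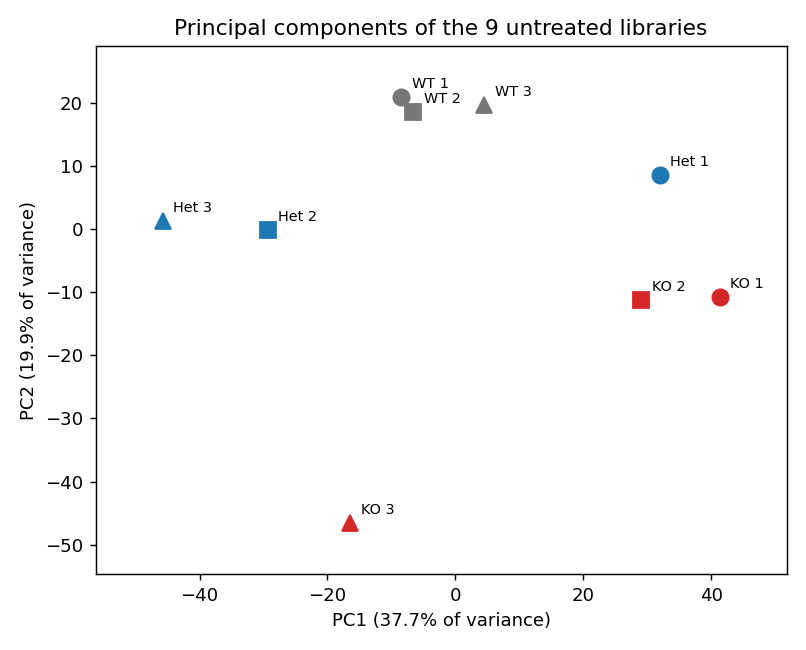
First and second principal components of log2 CPM in the 9 untreated libraries, with the share of variance on each axis and 1 point per library by genotype. Het replicate 1 lies beside KO replicates 1 and 2 on the first component, and KO replicate 3 lies lowest on the second.

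Without Het replicate 1, edgeR called 1938 genes (11% of those tested), 776 higher (4.41%) and 1162 lower (6.61%) in KO. The calls were uneven in size. Genes that fell had a median log2 fold change of -0.80 and 465 of them fell at least 2-fold, whereas genes that rose had a median of 0.32 and 17 rose at least 2-fold. All 1938 had the same sign with every library in, 1538 had an unadjusted p under 0.05 there, and 514 had groups that did not overlap. These calls rest on 2 Het libraries, and the library left out was picked with its values known. Their spread was estimated with the libraries of the other groups as well. An edgeR fit on the compared libraries alone, without Het replicate 1, called 55 of the 17009 genes tested there, 1 higher and 54 lower. In that smaller fit 3 duct markers fell, 0 beta cell markers rose, and 0 acinar, endothelial, NF-kB target or chaperone genes passed. In 1126 of the 1162 genes called lower, Het replicate 1 was below both other Het libraries, against 36.3% of all genes, and in 769 of the 776 called higher it was above both, against 43.9%. Many results below are therefore given with and without that library. Several single genes are given only without it, and with all libraries edgeR called Dsg3 alone. Leaving out any other library of the 6 gave 0 calls, with a smallest adjusted p of 0.0529 to 0.314 by edgeR.

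Slc30a8 itself (ENSMUSG00000022315, GRCm38 chromosome 15, 52295553 to 52335798, plus strand) stood at 126, 95.7 and 111 CPM in the Het libraries and at 47.9, 55.9 and 44.0 CPM in the KO libraries. Every KO library was below every Het library, and KO islets kept 44.4% of the Het reads. The log2 fold change was -1.17 ± 0.18 with an edgeR adjusted p of 0.09999 with all libraries and 0.00643 without Het replicate 1, where it was -1.07. DESeq2 gave an adjusted p of 2.2e-06. A count per gene holds reads from inside and outside the deletion alike. Het islets had 95.9% of the WT level of Slc30a8, so the Het libraries did not stand below WT on this measure.

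Dsg3 encodes desmoglein 3, a cadherin of the desmosomes that hold stratified epithelial cells together and the main autoantigen of pemphigus vulgaris. The Het libraries held 5.39, 22 and 46.8 CPM of Dsg3 and the KO libraries 0.265, 0.649 and 0.819 CPM. Every KO library was below every Het library, and the Het libraries were far apart among themselves. The log2 fold change was -5.39 ± 0.71 (edgeR adjusted p = 0.0267), and -5.86 ± 0.50 without Het replicate 1 (adjusted p = 4.43e-05). The call was lost when any 1 of the other 5 libraries was left out, and over all such fits the value ran from -5.87 to -4.55 with an adjusted p of up to 0.314. WT islets held 1.45, 2.18 and 1.87 CPM, which is between the 2 other genotypes. Het islets thus stood at 1350% of the WT level, which did not pass the test (log2 3.75, adjusted p = 0.13), nor did KO against WT (-1.64, adjusted p = 0.26). With cytokines the same order was seen, with Dsg3 at 6.85, 11.8 and 13.8 CPM across the Het and 0.60, 0.135 and 1.04 CPM across the KO libraries (-4.15, adjusted p = 0.0979).

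Some other genes of epithelial adhesion are given next. They were picked after their values were seen and form no list of the study or of this comparison. Itga6, the integrin alpha 6 chain of hemidesmosomes and laminin receptors, stood at 66.3, 94.3 and 95.9 CPM across the Het and at 55.4, 57.0 and 58.7 CPM across the KO libraries. The groups did not overlap, although Het replicate 1 was closer to the KO libraries than to the other Het libraries. Its log2 fold change was -0.58 ± 0.10 (edgeR adjusted p = 0.09999) and -0.74 ± 0.05 without Het replicate 1, the smallest adjusted p in that comparison at 4.05e-06. F11r, the tight junction protein JAM-A, held 78.6, 114 and 111 CPM in the Het and 68.6, 68.0 and 73.3 CPM in the KO libraries (-0.53, and -0.68 without Het replicate 1, adjusted p = 1.37e-05). Itga3, the laminin receptor chain alpha 3, fell by 0.79 and Cd2ap, an adaptor between junctions and actin, by 0.71 without Het replicate 1 (edgeR adjusted p = 0.000159 and 0.000338). The tight junction claudin Cldn3, the epithelial cadherin Cdh1 and the desmosome plaque protein Pkp3 also fell without that library, by 0.64, 0.48 and 0.57 (adjusted p = 0.00119, 0.00616 and 0.00206). Desmosomal Dsp, at -0.12, and the tight junction scaffold Tjp1, at -0.04 with all libraries, were near the median of all genes, which was 0.01.

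Genes of pancreatic duct epithelium were lower in KO as a group. Of the 18 duct markers tested, all 18 had negative values and 16 had an unadjusted p under 0.05, against 8.99% of all genes, with a median of -0.77. Lower groups that did not overlap were seen in 7 of the 18, against 6.32% of all genes. Without Het replicate 1 the median was -0.96 and 17 of 18 passed the adjusted test, against 6.61% of all genes. The exception was Krt7, at 616, 606 and 601 CPM across the Het and 642, 629 and 547 CPM across the KO libraries. Muc1, the cell surface mucin of duct cells, held 42.9, 83.1 and 100.3 CPM across the Het and 26.1, 35.4 and 32.0 CPM across the KO libraries (-1.28 ± 0.23, adjusted p = 0.09999). Each KO library was below each Het library, and without Het replicate 1 Muc1 fell by 1.56 ± 0.15 (edgeR adjusted p = 0.000159). Krt8, the keratin of simple epithelia, held 562, 908 and 748 CPM in the Het and 419, 492 and 435 CPM in the KO libraries. It likewise fell without Het replicate 1, by 0.88 ± 0.12 (adjusted p = 0.00111), from -0.72 ± 0.14 with all libraries (adjusted p = 0.09999).

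Ehf and Elf3, transcription factors of the ETS family that act in epithelia, were lower with these genes. Ehf held 57.4, 85.8 and 96.4 CPM across the Het and 43.6, 54.2 and 51.3 CPM across the KO libraries, and fell by 0.87 without Het replicate 1 (edgeR adjusted p = 0.000403). Elf3 held 43.3, 58.0 and 73.0 CPM across the Het and 42.6, 33.6 and 40.8 CPM across the KO libraries, and fell by 0.75 (adjusted p = 0.00163). The 250 bases before the start of Muc1 and of Krt8 are shown because both genes passed with these factors. They are RefSeq promoters on GRCm38.p6, at chr3:89228806-89229055 on the plus strand for Muc1 and chr15:102004343-102004592 on the minus strand for Krt8, printed 5′ to 3′ with the ETS core CGGAA or AGGAA of either strand in capitals.
Muc1: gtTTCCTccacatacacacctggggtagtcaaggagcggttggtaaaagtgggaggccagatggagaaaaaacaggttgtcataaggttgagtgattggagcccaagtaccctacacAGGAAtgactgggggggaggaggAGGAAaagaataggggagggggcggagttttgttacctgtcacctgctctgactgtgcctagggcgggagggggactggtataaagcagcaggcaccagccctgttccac
Krt8: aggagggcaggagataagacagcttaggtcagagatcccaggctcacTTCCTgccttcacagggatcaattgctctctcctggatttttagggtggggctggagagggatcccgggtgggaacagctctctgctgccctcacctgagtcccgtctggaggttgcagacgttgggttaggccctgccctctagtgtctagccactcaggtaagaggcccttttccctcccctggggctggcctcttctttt
Muc1 holds 3 such cores and Krt8 holds 1. So short a motif is common, and 71.4% of the 32851 promoters of this length in the table hold at least 1 match on either strand, so a match here describes the letters only.

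**Figure D3:**
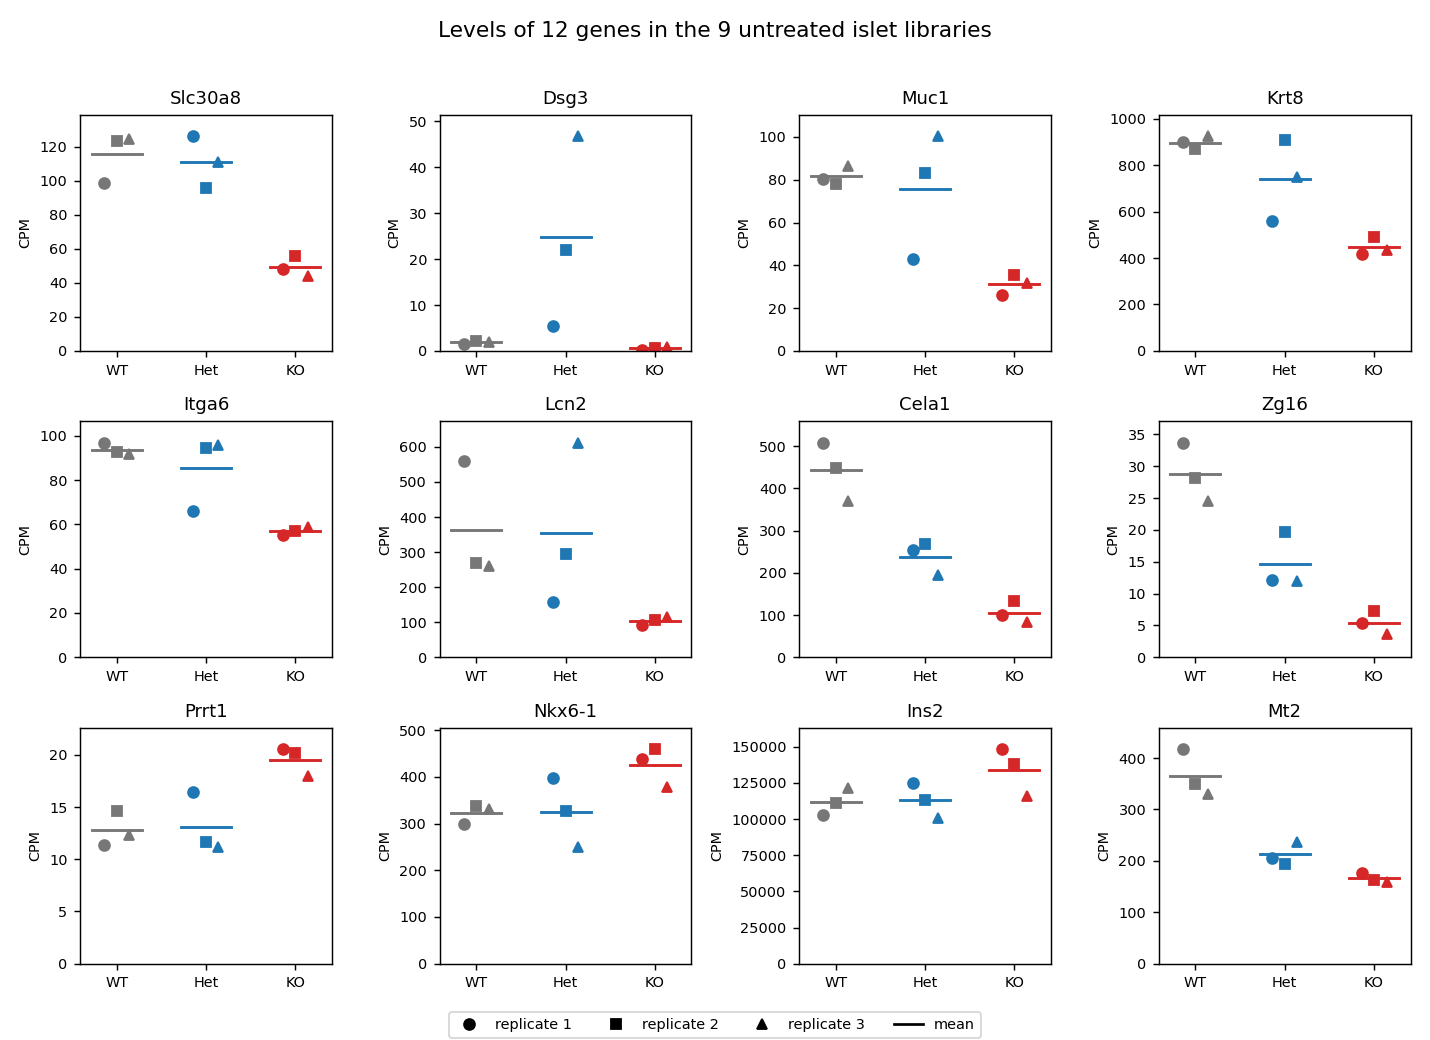
CPM (vertical axis of each panel, from 0) of 12 genes in untreated WT, Het and KO islets, with 1 point per library, marked by replicate, and a line at the mean of each group. Slc30a8, Dsg3, Muc1, Krt8, Itga6, Lcn2, Cela1 and Zg16 are lower in every KO library than in every Het library, and Mt2 is lowest in KO but highest in WT.

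The summed level of the duct markers was 3364, 6588 and 7435 CPM in the Het libraries and 2668, 3450 and 3331 CPM in the KO libraries. Het replicate 1 thus lay between the KO replicates, and Het replicates 2 and 3 were above the 3 WT libraries, which held 4421 to 5517 CPM. None of the 18 markers was without reads. Keratins, trefoil factors and mucins, which share members with the duct list, were lower in 17 of 18 genes tested, with a median of -0.91. Without Het replicate 1, 9 of them were called lower, against 6.61% of all genes. Tff2, a trefoil peptide that protects mucosa, held 2.12, 3.67 and 1.97 CPM in the Het and 0.721, 1.14 and 0.688 CPM in the KO libraries and fell by 1.74 without that library (edgeR adjusted p = 0.00826). Duct genes could be very uneven among the Het libraries. Secreted osteopontin, Spp1, held 872, 2832 and 3939 CPM across the Het and 568, 1114 and 1180.4 CPM across the KO libraries, so that Het replicate 1 was within the KO range. Car2, carbonic anhydrase 2, held 1.98, 37.6 and 121 CPM across the Het and 1.52, 5.88 and 14.4 CPM across the KO libraries, and the chloride channel gene Cftr 3.96, 27.5 and 21.1 and 2.77, 5.52 and 8.92 CPM. In these genes too Het replicate 1 was within the KO range. Many of the epithelial genes above were, like the summed duct markers, lower in Het replicate 1 than in the other Het libraries. Others did not follow that sum: Tff2 was lowest of the Het libraries in Het replicate 3, where the duct sum was highest. Krt8 was also higher in every WT library than in Het replicate 3. How far the amount of duct tissue accounts for the epithelial differences was not tested.

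Among the genes of smallest p outside these lists, several are also known from epithelia. Mapk13, a p38 kinase, held 8.94, 15.1 and 21.5 CPM in the Het and 4.85, 7.14 and 6.39 CPM in the KO libraries (-1.31, adjusted p = 0.09999). Rab27b, a small GTPase of regulated secretion, held 5.29, 7.06 and 8.35 CPM across the Het and 2.96, 3.65 and 3.05 CPM across the KO libraries (-1.10, adjusted p = 0.09999). Neither gene's groups overlapped, and both fell without Het replicate 1, by 1.58 and 1.26 (edgeR adjusted p = 0.00034 and 0.00303). In edgeR with the low-count filter, 5 further genes passed only without Het replicate 1. They were the serine protease Hpn, the lipid phosphatase Plpp2, the mucin-type glycosyltransferase Galnt3, the chloride channel Clic1 and the surface protein Plet1. Their values were -1.12, -0.95, -1.63, -0.60 and -1.88 (edgeR adjusted p = 9.83e-05, 8.03e-05, 0.000238, 0.000238 and 0.000356). With all libraries, DESeq2 and limma voom called all 5 (adjusted p up to 0.00663 and 0.0151). edgeR with no low-count filter called Hpn, Galnt3 and Plet1. In each of these 5 genes Het replicate 1 was below both other Het libraries and above all 3 KO libraries, except in Plpp2, where it was within the KO range.

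Acinar genes, which encode digestive enzymes, differed in another pattern. Of 34 markers, 31 passed the low-count filter, 30 of these had negative values and 24 had an unadjusted p under 0.05 on the lower side, against 8.99% of all genes, with a median of -0.91. Het replicate 1 made little difference to the size here: without it the median was -0.86 and 7 passed as lower, against 6.61% of all genes, among them the elastase Cela1, the lectin Zg16 and the regulator Nr5a2. Cela1 held 254, 268 and 194 CPM across the Het and 99.1, 132 and 83.0 CPM across the KO libraries, with no overlap (-1.19 ± 0.28, and -1.14 without Het replicate 1, edgeR adjusted p = 0.0299). Zg16, a secretory granule lectin, held 12.2, 19.6 and 12.1 CPM in the Het and 5.31, 7.22 and 3.67 CPM in the KO libraries, a log2 fold change of -1.45 ± 0.27. The acinar transcription factor Bhlha15 (Mist1) was the exception, at 0.27, and rose by 0.42 without Het replicate 1 (adjusted p = 0.0244). It is also used by other secretory cells. The summed acinar level was 3436 to 5196 CPM in Het, 1925 to 2976 CPM in KO and 9855 to 9958 CPM in WT islets, so both mutant groups lay below WT and KO below Het. The part of acinar tissue in these differences was not tested. Members of the Reg family, secreted by acinar cells, were also lower, with all 6 tested negative and a median of -0.57. Reg3a fell by 1.48 without Het replicate 1 (edgeR adjusted p = 0.0435).

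**Figure D4:**
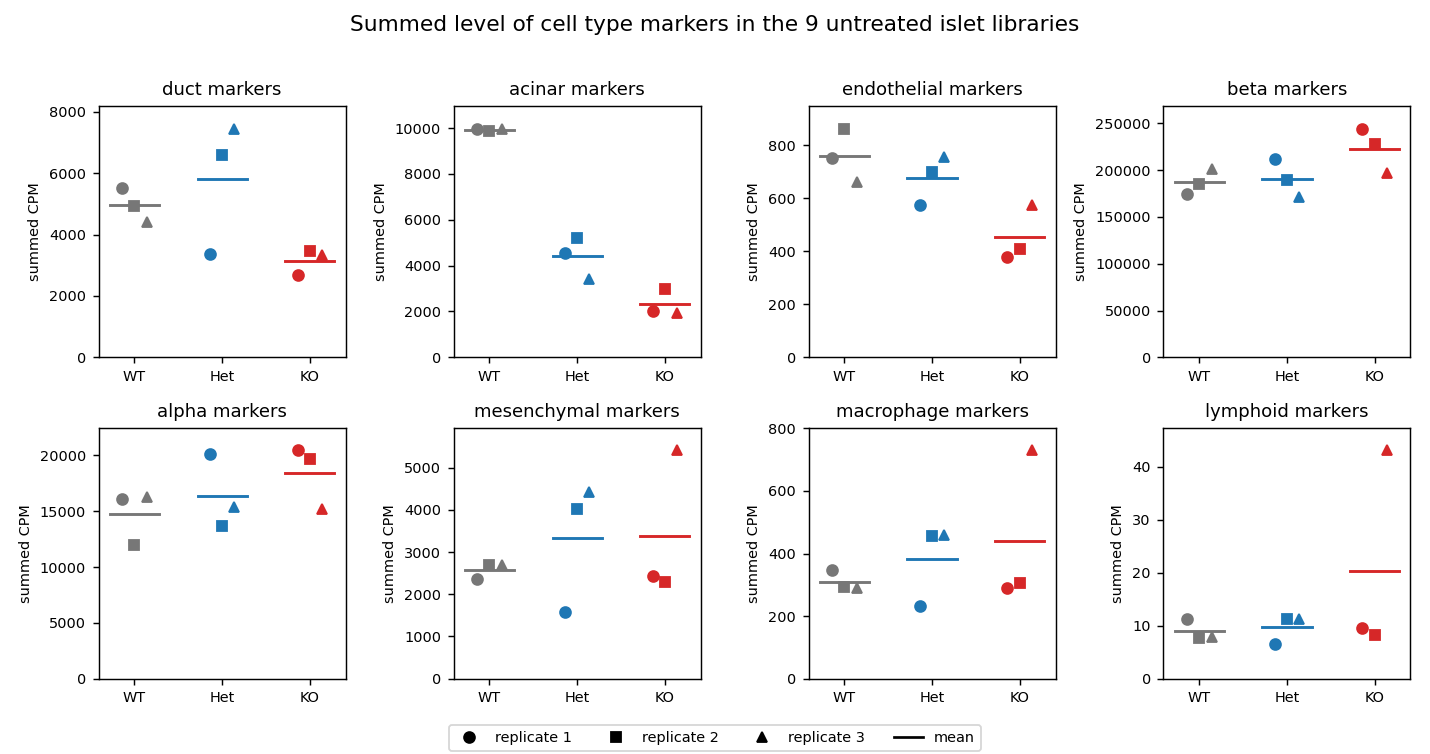
Summed CPM of 8 marker lists (duct, acinar, endothelial, beta, alpha, mesenchymal, macrophage, lymphoid; vertical axis of each panel, from 0) in untreated WT, Het and KO islets, with 1 point per library marked by replicate and a line at the mean. Duct markers are low in Het replicate 1 and all KO libraries, acinar markers are ordered WT, Het, KO, and lymphoid markers are high only in KO replicate 3.

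Endothelial markers all had negative values with every library in. Of the 22, 8 had lower groups that did not overlap, against 6.32% of all genes. An unadjusted p under 0.05 was seen in 15, against 8.99% of all genes lower, and the median was -0.62. The median was -0.70 without Het replicate 1, where Esm1 was positive (0.15) and 4 passed, against 6.61% of all genes: Vwf, Emcn, Plvap and Sox17. Without KO replicate 3 the median was -0.83. Vwf, the von Willebrand factor that binds platelets, held 6.83, 15 and 16.0 CPM across the Het and 0.948, 3.00 and 5.24 CPM across the KO libraries. It fell by 2.32 without Het replicate 1 (edgeR adjusted p = 0.019). Emcn, a sialomucin of capillaries, held 23.1, 26.0 and 31.0 CPM across the Het and 13.9, 18.5 and 19.3 CPM across the KO libraries and fell by 0.72 (adjusted p = 0.0276). Kdr, the receptor VEGFR2, was steady among the Het libraries at 71.6, 72.8 and 71.6 CPM and stood at 42.4, 43.6 and 53.3 CPM in KO islets, but missed the threshold without Het replicate 1 (-0.63, adjusted p = 0.0592). The summed endothelial level was 577 to 755 CPM in the Het and 381 to 575 CPM in the KO libraries, a narrow gap between KO replicate 3 and Het replicate 1, and how far the number of endothelial cells accounts for the gene differences was not tested.

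Genes of inflammation formed the next group of lower values. Among 45 targets of the transcription factor NF-kB, 37 were negative and 16 had an unadjusted p under 0.05, all lower, against 8.99% of all genes, with a median of -0.30. Leaving out Het replicate 1 gave a median of -0.47, and 13 passed, all lower, against 6.61% of all genes. Leaving out KO replicate 3, which carried immune cell reads, gave a median of -0.74 and 0 calls, with 0 over all genes too. Leaving out both libraries gave -0.93 with 25 lower, in a setting where 1808 of all 17590 genes were called lower. Acute phase genes were further down, with a median of -1.57 over 22 tested. At an unadjusted p under 0.05, 15 were lower, against 8.99% of all genes, and 2 were higher, against 5.91%. Lcn2, the iron-sequestering lipocalin 2, held 159, 293 and 612 CPM across the Het and 93.1, 106 and 115 CPM across the KO libraries (-1.76 ± 0.36, edgeR adjusted p = 0.106). Its groups did not overlap, and it fell by 2.11 ± 0.29 without Het replicate 1 (adjusted p = 0.00149). The neutrophil-attracting chemokine Cxcl1 held 3.00, 3.43 and 11.3 CPM across the Het and 1.33, 1.26 and 2.23 CPM across the KO libraries, and Lrg1, a secreted acute phase glycoprotein, 31.9, 24.5 and 112 and 15.9, 6.53 and 16.6 CPM. Het replicate 3 was the highest library for Lcn2, Cxcl1 and Lrg1. Cxcl1 fell by 2.17 and Lrg1 by 2.38 without Het replicate 1 (adjusted p = 0.0155 and 0.0157).

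S100a9, a calprotectin subunit, held 4.74, 1.57 and 21.2 CPM in the Het and 1.21, 0.649 and 1.21 CPM in the KO libraries, and fell by 3.45 without Het replicate 1 (edgeR adjusted p = 0.0363). S100a9 is abundant in neutrophils. Of 13 neutrophil markers 7 passed the low-count filter, 3 positive and 4 negative with a median of -1.88, and S100a9 and Ltf, the iron-binding lactoferrin, fell without Het replicate 1. Ltf had 13, 8 and 212 reads in the Het libraries and 2, 0 and 5 in the KO libraries, so that Het replicate 3 held most of them (-5.40 without Het replicate 1, edgeR adjusted p = 0.0371). The neutrophil genes Elane and Ly6g had 0 reads in all 9 untreated libraries and Mpo at most 2. Summed neutrophil markers were 14.2, 37.8 and 64.8 CPM in the Het libraries and 17.3, 19.2 and 66.0 CPM in the KO libraries, and the part of neutrophils in these differences was not tested. The WT libraries overlapped the Het libraries, with Lcn2 at 559, 270.1 and 262 CPM and S100a9 at 46.0, 7.07 and 11.8 CPM. The interleukin Il6, the inhibitor Nfkbia and the survival gene Bcl2l1 fell without Het replicate 1 by 1.81, 0.56 and 0.36 (edgeR adjusted p = 0.0177, 0.02 and 0.00159). Nos2, the inducible nitric oxide synthase, was at 0.341, 0.175 and 1.28 CPM across the Het and 0.0379, 0.0812 and 0.754 CPM across the KO libraries, an overlap of groups that were both barely above 0. Several of these genes are also made by duct cells or by immune cells, and the part of the duct markers, which were lower in the same libraries, was not tested.

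Interferon targets and immediate early genes were lower by less. Of 56 interferon targets, 45 were negative and 19 had an unadjusted p under 0.05, all lower, against 8.99% of all genes, with a median of -0.27. Of these 56, 6 passed without Het replicate 1, all lower, against 6.61% of all genes, and without KO replicate 3 the median was -0.50. Irf7, the factor that amplifies the interferon response, held 24.6, 26.4 and 69.2 CPM across the Het and 14.5, 6.74 and 19 CPM across the KO libraries, and fell by 1.82 without Het replicate 1 (edgeR adjusted p = 0.0222). Ifi27 was steadier, at 48.8, 45.9 and 59.2 CPM in the Het and 39.7, 35.4 and 40.8 CPM in the KO libraries, and fell by 0.44 (adjusted p = 0.0192). Among 35 immediate early genes 11 passed without Het replicate 1, all lower, against 6.61% of all genes, with Junb at -0.81 and Fos at -0.82 (adjusted p = 0.00149 and 0.0126), both subunits of AP-1. The median of immediate early genes was -0.24 with all libraries and -0.43 without KO replicate 3. Of 35 genes of apoptosis 9 passed without Het replicate 1, all lower, against the same 6.61%, and the median was -0.21 with all libraries and -0.32 without KO replicate 3. They include both sides of the pathway: the survival genes Bcl2l1 and Mcl1 and the death-promoting genes Bik and Bmf.

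Values of beta and alpha cell genes leaned to the higher side in KO, by small amounts, and with all libraries none passed edgeR's adjusted test. The other tools did call some with all libraries. limma voom called 8 beta cell markers higher and 2 lower, and 3 alpha cell markers higher. It called 1012 genes higher and 1267 lower over all 17590. DESeq2 called 0 beta cell markers higher and 2 lower, against 47 and 282 over all genes. Of 32 beta cell markers, 29 were positive with a median of 0.24, and 6 had an unadjusted p under 0.05 on the higher side, against 5.91% of all genes, but none had higher groups that did not overlap. With Het replicate 1 left out the median was 0.36. Then 8 rose, against 4.41% of all genes, and 2 fell, against 6.61%. Those that fell were Slc30a8 and the imprinted gene Nnat. The insulin genes did not pass: Ins2 held 125120.0, 113460.0 and 101030.0 CPM across the Het and 148430.0, 138020.0 and 116210.0 CPM across the KO libraries (0.25 ± 0.13, edgeR adjusted p = 0.394). Ins1 stood at 0.20 ± 0.12, amylin (Iapp) at 0.12 ± 0.12, glucagon (Gcg) at 0.16 ± 0.19, somatostatin (Sst) at 0.21 ± 0.16 and pancreatic polypeptide (Ppy) at 0.28 ± 0.68, all with overlapping groups and edgeR adjusted p of 0.394 or more. Het replicate 1 was the highest Het library in Ins2, Gcg and Sst.

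Of 21 beta cell transcription factors, 16 were positive and 5 negative with a median of 0.15. At an unadjusted p under 0.05, 4 were higher, against 5.91% of all genes, and 2 lower, against 8.99%. In the fit without Het replicate 1, 5 rose, against 4.41% of all genes, and 1 fell, against 6.61%. The gene that fell was Foxa1, a pioneer factor also used by duct cells, at 1.13, 5.24 and 5.23 CPM across the Het and 0.341, 1.5 and 1.97 CPM across the KO libraries (-2.03 without Het replicate 1, edgeR adjusted p = 0.018). Nkx6-1, which holds beta cell identity, stood at 398, 327 and 250.5 CPM across the Het and 438, 459.9 and 379.6 CPM across the KO libraries (0.39 ± 0.13, adjusted p = 0.204). It rose by 0.56 ± 0.12 without Het replicate 1 (edgeR adjusted p = 0.011), as did Nkx2-2 by 0.49 (adjusted p = 0.0113). Pdx1 and Mafa, the insulin gene activators, were at 0.41 and 0.46 without that library and did not pass (adjusted p = 0.0914 and 0.18). Prlr, the prolactin receptor, held 304, 199 and 169 CPM in the Het and 287, 309 and 273 CPM in the KO libraries and rose by 0.65 without Het replicate 1 (adjusted p = 0.00193). In that gene Het replicate 1 was inside the KO range, so the call depends on leaving it out.

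Of 28 genes of insulin processing and granules, 24 were positive and 10 rose without Het replicate 1, against 4.41% of all genes, among them the granule membrane proteins Ptprn and Ptprn2 and the prohormone convertase Pcsk2. Ptprn2, the islet autoantigen phogrin, held 489, 378 and 354 CPM across the Het and 547, 515 and 477 CPM across the KO libraries and rose by 0.49 (edgeR adjusted p = 0.00358). Of 25 genes of glucose sensing and excitability 8 rose without Het replicate 1, against 4.41% of all genes, and 0 fell. The glucose transporter Slc2a2 was at 0.34 ± 0.21 with all libraries, with Het at 192, 201 and 91.8 CPM and KO at 213, 226 and 174 CPM. Alpha cell genes had a median of 0.25 over 13 tested. Slc7a2 and Peg3 passed as higher without Het replicate 1, against 4.41% of all genes. Of 10 delta and PP cell genes 6 were positive and 4 negative, with a median of 0.16. Among them Hhex, a delta cell transcription factor, was lower in every KO library, at 29.9, 37.5 and 43.7 CPM across the Het and 25.8, 29.1 and 26.3 CPM across the KO libraries, and fell by 0.58 without Het replicate 1 (edgeR adjusted p = 0.0272). The summed beta cell markers were 171010 to 211600 CPM across the Het and 196720 to 243770 CPM across the KO libraries. CPM are shares of a library, so a lower share of duct, acinar and endothelial reads leaves a larger share for all other cells, and its part in these increases was not tested.

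Genes that were higher in KO with the smallest p of the whole table were mostly outside the beta cell lists. Etv5, an ETS factor induced by growth factor signalling, held 38.5, 38.9 and 34.5 CPM in the Het and 47.2, 51.2 and 45.7 CPM in the KO libraries (0.36 ± 0.06, edgeR adjusted p = 0.09999). Its replicates were close in both groups, and the value barely moved without Het replicate 1 (0.39, adjusted p = 0.00633). Gatm, the first enzyme of creatine synthesis, held 23.8, 26.0 and 22.9 CPM across the Het and 32.5, 31.5 and 34.6 CPM across the KO libraries. It rose by 0.43 without Het replicate 1 (adjusted p = 0.0188). Prrt1, a protein of AMPA receptor complexes in neurons, held 16.4, 11.7 and 11.2 CPM across the Het and 20.6, 20.2 and 17.9 CPM across the KO libraries and rose by 0.77 (adjusted p = 0.000743). Trnp1, a nuclear protein of neural progenitors, the histone deacetylase Hdac5 and the GM-CSF receptor chain Csf2ra rose by 0.53, 0.34 and 0.44 (adjusted p = 0.0158, 0.0116 and 0.00869). The WT libraries stood with the Het libraries in Etv5 (36.8, 40.6 and 38.0 CPM) and Gatm (22.1, 22.2 and 26.6 CPM).

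Chaperones of the endoplasmic reticulum, which fold insulin precursors, were slightly higher. Of 25 tested, 24 were positive, with a median of 0.11, and without Het replicate 1 the median was 0.21 and 13 rose, against 4.41% of all genes. The stress sensor Atf6 rose by 0.25 and the chaperone Hyou1 by 0.31 (edgeR adjusted p = 0.00716 and 0.00987), whereas Hspa5 (BiP), at 0.19, did not pass (adjusted p = 0.0672). Hyou1 held 1091, 822 and 874 CPM in the Het and 1111, 1031 and 1019 CPM in the KO libraries, and Het replicate 1 was again next to the KO libraries.

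Of 26 zinc transporter and metallothionein genes, 10 were positive and 16 negative with a median of -0.07. Without Het replicate 1, 5 of the 26 fell, against 6.61% of all genes: Slc30a8, Slc30a3, Slc39a1, Slc39a4 and Slc39a10. The importer Slc39a10 held 16.9, 17.4 and 20.5 CPM across the Het and 14.3, 13.6 and 13.9 CPM across the KO libraries and fell by 0.44 (edgeR adjusted p = 0.0291). Slc30a3, which loads zinc into synaptic vesicles, was near the lower limit at 0.512, 0.944 and 0.589 CPM across the Het and 0.152, 0.243 and 0.164 CPM across the KO libraries. Slc39a4, an intestinal zinc importer, was uneven in the way of the duct genes, at 4.88, 17.0 and 18.6 CPM in the Het and 1.82, 4.75 and 8.82 CPM in the KO libraries. Slc39a8, a zinc and manganese importer, held 16.3, 13.4 and 13.6 CPM across the Het and 10.5, 10.1 and 9.67 CPM across the KO libraries, without overlap, but did not pass (-0.52, adjusted p = 0.14, and 0.0696 without Het replicate 1). The exporter Slc30a1 was at 0.12 ± 0.05, with values of 25.5 to 25.9 CPM across the Het and 27.0 to 29.3 CPM across the KO libraries.

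Metallothioneins bind zinc, and their genes are switched on by zinc through the factor MTF1. Mt1 held 305, 271 and 309.8 CPM in the Het and 272, 241 and 239 CPM in the KO libraries, with overlap between Het replicate 2 and KO replicate 1 (-0.24 ± 0.16, edgeR adjusted p = 0.519). Mt2 held 206, 194 and 237 CPM across the Het and 177, 163 and 159.8 CPM across the KO libraries (-0.35 ± 0.15, adjusted p = 0.29). WT islets held more of both, 588, 503 and 509 CPM of Mt1 and 418, 349 and 329.9 CPM of Mt2, which is above every Het and KO library. KO islets were below WT islets in Mt1 by -1.09 and in Mt2 by -1.13 (adjusted p = 0.0029 and 0.00161), and Het islets, at -0.85 and -0.78, missed the threshold (adjusted p = 0.145 for each). Whether the step from WT to Het differs from that from Het to KO was not tested. Mt3, the form best known from brain, went the other way, at 8.77, 6.85 and 6.37 CPM across the Het and 12.2, 9.78 and 9.60 CPM across the KO libraries, and rose by 0.67 without Het replicate 1 (adjusted p = 0.0294). The 250 bases before Mt1 (chr8:94178839-94179088, plus strand) and Mt2 (chr8:94172368-94172617, plus strand), RefSeq on GRCm38.p6, are shown next. The metal response element core TGCACNC or TGCGCNC of either strand is in capitals. Whether zinc acts through these bases was not tested.
Mt1: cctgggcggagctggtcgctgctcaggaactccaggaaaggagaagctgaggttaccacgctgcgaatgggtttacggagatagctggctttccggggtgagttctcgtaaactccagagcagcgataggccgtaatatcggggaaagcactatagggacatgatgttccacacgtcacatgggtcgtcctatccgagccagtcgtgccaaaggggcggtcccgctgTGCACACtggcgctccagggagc
Mt2: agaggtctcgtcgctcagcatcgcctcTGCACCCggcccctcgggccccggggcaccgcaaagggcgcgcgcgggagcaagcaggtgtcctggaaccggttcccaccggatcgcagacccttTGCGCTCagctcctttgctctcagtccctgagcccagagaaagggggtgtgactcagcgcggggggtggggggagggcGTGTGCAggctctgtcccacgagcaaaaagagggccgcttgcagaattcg
Within these 250 bases Mt1 holds 1 such core and Mt2 holds 3, the last on the other strand. Elements outside these bases were not counted. A match on either strand is found in 21.4% of promoters of this length, so a match here describes the letters only.

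The series title names mitochondrial respiration. Of 79 nuclear genes of oxidative phosphorylation, 45 were positive, with a median of 0.02. At an unadjusted p under 0.05, 1 was higher, against 5.91% of all genes, and 3 were lower, against 8.99%. Without Het replicate 1 the median was 0.03 and 3 of the 79 passed, all higher, a share below the 4.41% of all genes. These were Ndufb10, Atp5g1 and Atp5l, at 0.23, 0.28 and 0.26 (edgeR adjusted p = 0.0456, 0.0385 and 0.0321). Atp5l, a subunit of ATP synthase, held 144, 127 and 131 CPM in the Het and 164, 152 and 146 CPM in the KO libraries. None of the 13 mitochondrially encoded protein genes passed in either setting. Their median was -0.08, and mt-Co1 stood at -0.08 ± 0.11. The medians of both lists lay within 0.1 of that of all genes.

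KO replicate 3 carried more reads of immune cells than the other libraries. Macrophage markers summed to 290, 305 and 729 CPM in the KO libraries and 232, 457 and 460 CPM in the Het libraries, and lymphoid markers to 9.63, 8.28 and 43.0 CPM against 6.52, 11.3 and 11.2 CPM. Of 24 macrophage genes 22 were positive with a median of 0.58, and the median was -0.07 without KO replicate 3. Cd4 had 497 reads in KO replicate 3 and 14 to 59 in the other untreated Het and KO libraries, and the T cell receptor chain gene Cd3e 41 reads against 1 to 5. Cd3d and Cd8a had 0 reads in the other 8 untreated libraries and 18 and 12 in KO replicate 3, whereas the B cell gene Ms4a1 had 0 in all 9. Cx3cr1, the fractalkine receptor of resident macrophages, was higher in every KO library, not in that one alone, with 2.15, 4.82 and 2.94 CPM across the Het and 5.92, 6.98 and 6.56 CPM across the KO libraries (0.97 ± 0.37), but it did not pass (edgeR adjusted p = 0.254). Genes of antigen presentation by MHC class II had a median of 0.63 with all libraries and -0.06 without KO replicate 3. Leaving out both this library and Het replicate 1 gave 3175 calls, with 1367 higher and 1808 lower.

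**Figure D5:**
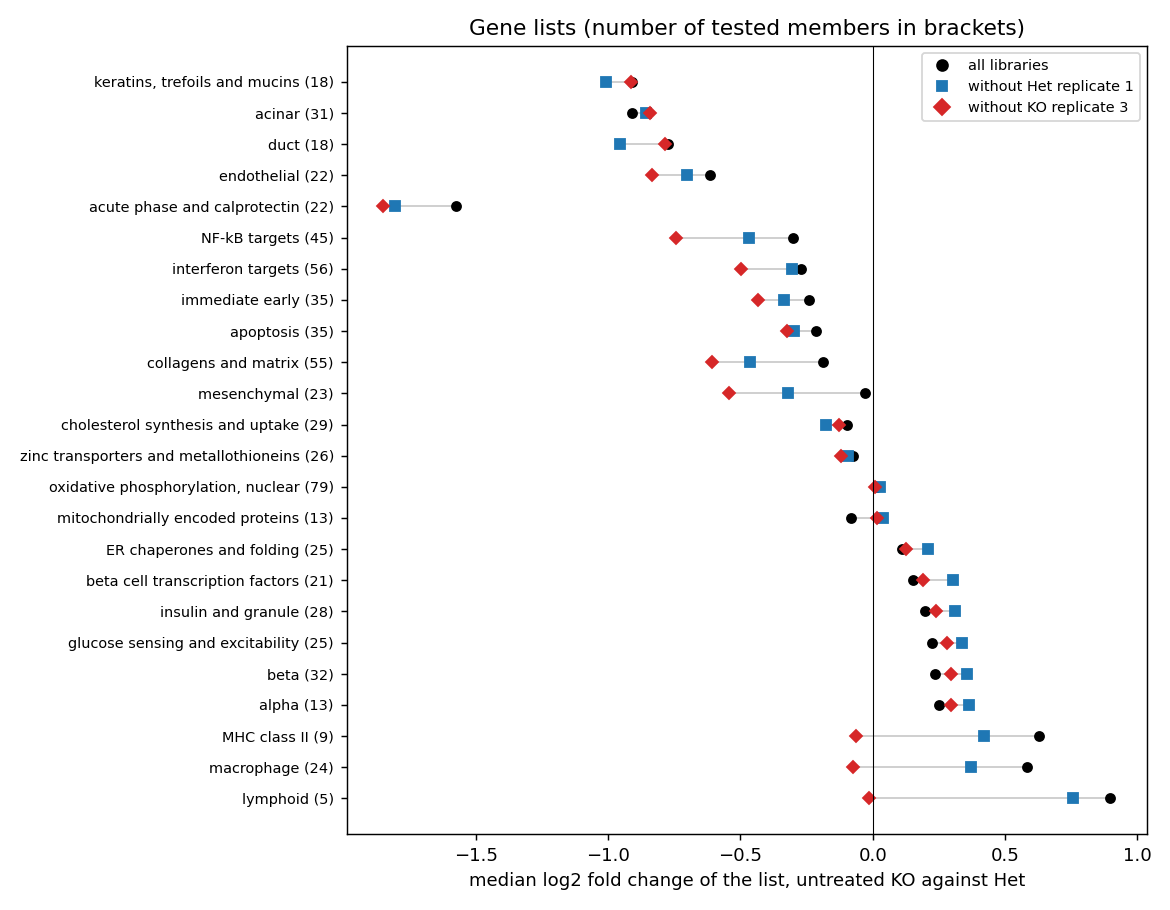
Median log2 fold change of KO over Het (horizontal axis) for 24 gene lists (vertical axis) with all libraries, without Het replicate 1 and without KO replicate 3. Duct, acinar, acute phase and endothelial genes lie left of 0 in all 3 settings, beta cell and chaperone genes lie right of 0, and macrophage, lymphoid and MHC class II genes move to about 0 without KO replicate 3.

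With cytokines, KO and Het islets differed in 0 of 17590 genes by edgeR (0% called), and 1487 had an unadjusted p under 0.05 (8.45%), 538 of them higher and 949 lower. The 2 treatments use separate libraries, so values can be set side by side. Acinar genes were lower in both, with a median of -0.91 untreated and -1.21 with cytokines, and so were endothelial genes, at -0.62 and -0.73. Duct genes were at -0.77 and -0.43. Acute phase genes went from -1.57 untreated to 0.02 with cytokines. Lcn2, at 93.1 to 115 CPM in untreated KO islets and 159 to 612 CPM in untreated Het islets, was near equal with cytokines (-0.08). Beta cell genes were at 0.24 and 0.11 and nuclear oxidative phosphorylation genes at 0.02 and 0.08.

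The difference between the 2 treatments, which tests whether KO against Het depends on cytokines, was called for 0 genes by edgeR (0%), with 1022 at an unadjusted p under 0.05 (5.81%). Among the 5 of smallest p, Cmpk1, a nucleotide kinase, was at -0.18 untreated and 0.22 with cytokines, and DESeq2 called it alone. Without Het replicate 1 edgeR called 5 genes for this difference: Clic1, St6gal1, Itga6, Plet1 and F11r. In all 5 the KO against Het value was higher with cytokines than without. With all libraries, where neither was called for this difference, Itga6 was at -0.58 untreated and -0.20 with cytokines, and F11r at -0.53 and -0.12. Without Het replicate 1 their untreated values were -0.74 and -0.68, and their differences between treatments 0.54 and 0.56. For the lists named above, the difference between treatments was not tested as a whole.

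Both KO and Het were also read against the same untreated WT libraries, so the KO and Het values below share those controls. Acinar genes had a median of -2.22 in KO and -1.26 in Het against WT, which places Het between the 2 others. Endothelial genes were at -0.72 in KO and -0.05 in Het, and acute phase genes at -1.89 and -0.36. Duct genes were at -0.59 in KO and 0.15 in Het against WT, with Het replicates 2 and 3 above and Het replicate 1 below every WT library in the summed level. KO islets stood below WT islets in Muc1, at -1.39, and in Krt8, at -0.9994 (edgeR adjusted p = 0.00478 and 0.00202), with WT at 80.3, 78.1 and 86.3 CPM of Muc1 and 898, 870.1 and 924 CPM of Krt8. The group means in those differences do not involve Het replicate 1, but the spread behind their p-values was estimated with that library in the fit. Beta cell markers were at 0.29 in KO and 0.06 in Het.

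Genes close to Slc30a8 on chromosome 15 were looked at because alleles near a targeted gene are inherited with it. Within 10 Mb of Slc30a8, 14 of 68 genes tested had an unadjusted p under 0.05 (20.6%), and 13 (19.1%) passed without Het replicate 1. Over chromosomes 1 to 19 and X these shares were 11.6% to 17.5% and 9.08% to 12.6%, and they were 0% on Y and on the mitochondrial chromosome, with 6 and 19 genes tested. The nearby genes of smallest p were Mal2, a protein of apical transport in epithelia, at -0.88, and Anxa13, an annexin of epithelia, at -3.07. Mal2 lies 2.24 Mb from Slc30a8 and Anxa13 6.01 Mb from it. Mal2 held 21.8, 29.8 and 35.2 CPM across the Het and 14.8, 17.0 and 15.3 CPM across the KO libraries, and Anxa13 2.05, 7.45 and 30.1 and 1.14, 1.42 and 2.10 CPM, in which Het replicate 1 overlaps KO replicate 3. Eif3h, a translation factor that lies close by, held 151, 159 and 167 CPM in the Het and 145, 142 and 146 CPM in the KO libraries (-0.14, adjusted p = 0.231). Whether the strain origin of this region bears on these genes was not tested.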

How the data were processed

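For 18 islet libraries the authors deposited a table of counts, raw whole numbers of reads per gene summing to 22990164 to 29946680 per library. The submitters' processing notes name FastQC 0.11.7, cutadapt 1.16, STAR 2.5.2a, featureCounts 1.6.2, DESeq2 1.30.0 and the build GRCm38, with no roles. The sources used here do not say whether strand was kept, so overlapping or near-identical genes are counted with less certainty.

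From these counts, R 4.3.3 with edgeR 4.0.16, limma 3.58.1 and DESeq2 1.42.0 gave CPM, fold changes and p-values, and Python 3.11.15 with matplotlib 3.10.9 the figures. Genes were kept by filterByExpr (count minimum 10), libraries were scaled by TMM, and all 18 libraries entered edgeR's quasi-likelihood fit, each group with its own mean (12 residual degrees of freedom, median biological coefficient of variation 0.103). Benjamini-Hochberg adjusted p-values run over the 17590 genes, with a threshold of 0.05. The fits were tested on simulated data.

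The members, the 48 gene lists and the rules were chosen with earlier results of these data known. The rule for named genes took Slc30a8, the called genes of largest change with no overlap and a mean of 1 CPM or more, filled to 8 in each direction by smallest p, then 8 called only without Het replicate 1, up to 3 called members per list or 2 by smallest p, 5 of the difference between treatments, and fixed hormone, beta cell and metallothionein genes. Genes given beyond it as examples of a list, a junction or a chromosome region were chosen after their values were seen. Lists share members. Some genes that the rule names are left out of the text. Gene positions are from GENCODE M21, and promoters from RefSeq. The alternatives were RLE scaling, no filter, the authors' filtered gene table, fits on 6 or 9 libraries, DESeq2, limma voom with quality weights, replicate blocks and leaving out each library. The block by the authors' metadata number, Het replicate 1 left out together with KO replicate 3, and Het replicate 1 left out with the filter reset, with another tool or with the block were added after seeing the data.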

Additional observations from a re-analysis of the deposited data

How the results depend on the processing

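With 3 libraries per group and a divergent one in each, the count of calls in untreated KO against Het depended on the setting. edgeR called 1 gene with TMM, with RLE scaling and with the genes of the authors' filtered table, 44 with no low-count filter, and 0 in the fits on 6 or on 9 libraries, where 1287 and 1959 had an unadjusted p under 0.05. DESeq2 called 329 and limma voom 2279. Of these, 312 (94.8%) and 1663 (73%) were among the 1938 called without Het replicate 1. Leaving out 1 library gave 0 to 1938 calls. Het replicate 1 was the only library whose removal raised the count, and a fit on the 5 libraries left gave 55. With Het replicate 1 left out, resetting the filter gave 1926 calls, DESeq2 2424, limma voom 3106 and the replicate block 1559. Without KO replicate 3 as well there were 3175.

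The replicate numbers in the titles, descriptions and metadata differ. Same-numbered untreated Het and KO libraries, by the description, had correlations of their deviations of 0.45, -0.00863 and 0.43. The other untreated Het and KO pairs had -0.5 to 0.254. Not every library correlated best with its own number. Whether same-numbered libraries share an animal or a day was not tested, and so few pairs cannot decide it. The replicate block gave 1 call by the description or metadata number and 4 by the title number: Slc30a8, Itga6, Trim15 and Dsg3.

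The difference between treatments was called for 1 gene by DESeq2, for 0 to 5 genes when 1 library was left out, for 56 without Het replicate 1 and KO replicate 3, and, without Het replicate 1, for 5 with the filter reset and 3 with the replicate block. Dsg3 was called in each setting but the fits on 6 or 9 libraries and those without Het replicate 2 or 3 or any 1 KO replicate. The fit on the 5 libraries left without Het replicate 1 still called it (edgeR adjusted p = 0.0413), so its calls did not follow the number of samples.

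Few named genes turned direction, all with wide spread or values near 0. Under limma voom these were Cd4 (-0.078), Wt1 (-0.41) and Ppy (-0.52), with -0.31, -0.66 and -0.27 when Het replicate 1 was also out. Without Het replicate 3 they were Rreb1 (-0.002) and Nos2 (0.28), and without KO replicate 1 Ppy (-0.24). Without KO replicate 3 they were Cd4 (-0.69), Il7r (-0.015) and Wt1 (-1.05). With Het replicate 1 out too they were Cd4 (-1.10), Il7r (-0.088), Wt1 (-1.34), mt-Atp8 (0.15), H2-Eb1 (-0.15) and Cd74 (-0.16). Over the fits that left out 1 library the other ends were 2.57 for Cd4, 1.24 for Il7r, 1.51 for Wt1, 0.08 for Rreb1, 0.77 for Ppy and -3.26 for Nos2. The cause was not tested for any of these. Genes near the low-count limit, such as Slc30a3 and Nos2, are read with the least precision.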

Other observations

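Of 29 genes of cholesterol synthesis and uptake, 19 were negative and 10 positive, with a median of -0.10 with all libraries and -0.18 without Het replicate 1. In the latter fit 10 fell, against 6.61% of all genes, among them the synthesis enzymes Hmgcs1, Fdft1 and Cyp51, and 2 rose, against 4.41%, Sqle and the sterol exporter Abcg1. Sqle, squalene epoxidase, held 187, 163 and 167 CPM across the Het and 204, 195 and 185 CPM across the KO libraries and rose by 0.24 (edgeR adjusted p = 0.0279).

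Of 39 genes of the Wnt pathway, 29 were negative with a median of -0.17, and 7 fell without Het replicate 1, against 6.61% of all genes, where the median was -0.40. Without KO replicate 3 it was -0.36. Those that fell included the ligands Wnt7a and Wnt7b, the receptor Fzd5 and the effector Ctnnb1. Ctnnb1, which also sits at adherens junctions, held 466, 585 and 571 CPM in the Het and 407, 443 and 443 CPM in the KO libraries and fell by 0.42 (edgeR adjusted p = 0.00171). Of 19 complement genes 7 fell without Het replicate 1, against 6.61% of all genes. C3 held 62.0, 214 and 234 CPM across the Het and 37.5, 68.3 and 119 CPM across the KO libraries. The median of complement genes was -0.18 with all libraries, -0.39 without Het replicate 1 and -0.79 without KO replicate 3. Matrix genes included 7 that fell of 55 without Het replicate 1, against 6.61% of all genes, with medians of -0.19, -0.46 and -0.61 in the same 3 settings, among them the basement membrane chains Col4a4, Col4a5 and Lama5. Of 39 proliferation genes 1 was higher and 1 lower at an unadjusted p under 0.05 with all libraries, against 5.91% and 8.99% of all genes. In the fit without Het replicate 1, 5 fell, the replication genes Mcm2, Mcm3, Mcm7, Pcna and Rrm1, against 6.61% of all genes. In the same fit 1 rose, the cyclin Ccnd2, against 4.41%. Glycolysis genes had a median of -0.11, with 1 higher and 1 lower of 21 without Het replicate 1, against 4.41% and 6.61% of all genes. Th, tyrosine hydroxylase of catecholamine synthesis, held 10.4, 10.6 and 9.49 CPM across the Het and 19.4, 16.4 and 12.4 CPM across the KO libraries and missed the threshold in both settings (0.66 ± 0.19, adjusted p = 0.163, and 0.0535 without Het replicate 1). All of these calls rest on 2 Het libraries, and the summed duct markers, at 6588 and 7435 CPM in those libraries against 2668 to 3450 CPM in KO islets, differed in the direction of most of them. Their part in these differences was not tested.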
